A study of Mus musculus with 7 samples.

Results

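The cytosolic ribosomal protein genes encode the protein subunits of the ribosomes that translate nuclear mRNAs. They were taken as the protein-coding genes of the mouse annotation GENCODE M21 whose symbols begin with Rpl or Rps and a digit, together with Rplp0, Rplp1, Rplp2 and Rpsa, leaving out the S6 kinases and pseudogenes. The rule found 86 of 21938 protein-coding genes. Of these, 77 encode structural subunits, 46 of the large and 31 of the small ribosomal subunit. Another 8 are paralogs of a subunit gene (Rpl3l, Rpl7l1, Rpl10l, Rpl22l1, Rpl36al, Rpl39l, Rps27l and Rps27rt), and Rps19bp1, which the rule also takes, encodes a protein that binds Rps19 and is not a subunit.

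Ribosomal protein genes are transcribed at high levels in dividing cells, and their products are needed in matched amounts. Their mRNAs start with a run of pyrimidines, the 5′ terminal oligopyrimidine (TOP) tract, through which translation responds to growth signals. In hematopoiesis they are known from Diamond-Blackfan anemia, in which the loss of 1 copy of any of several ribosomal protein genes impairs erythroid progenitors.

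Anti-HA CUT&Tag, in which an antibody directs a transposase to cut and tag the DNA around a bound protein, was used to map 2 forms of GATA2, a zinc finger transcription factor of hematopoietic progenitors. The cells were Hoxb8-immortalized mouse fetal liver progenitors of genotype hi-77-/-, which carry a deletion of a Gata2 enhancer. They were infected for 3 days with a GFP retrovirus for HA-tagged GATA2 or for HA-tagged 9aa-Ins, a variant whose zinc fingers are spaced farther apart by inserted amino acids, and GFP+ cells were sorted. The labels name 7 libraries, of which the 2 anti-HA libraries of each construct gave 1 peak list per construct. The other 3, made with an anti-GATA2 antibody, were not used here.

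All cells carried the enhancer deletion and an exogenous, retrovirally driven construct, and each condition's replicates were aliquots of 1 pool of cells. Cell identity could not be checked from peak positions. The replicates were merged in the lists, so that values are given without an SD or a test between replicates, and an uninfected or empty-vector list was not analysed here. GATA2 had 6254 peaks and 9aa-Ins 1079. The pileup, the number of reads over a summit, was recovered from the deposited fold enrichment and started at 9 reads in both lists, over a background of 0.464 (GATA2) and 0.455 reads (9aa-Ins). The reads per library were not analysed here, so the depth behind the lists is known only through this background.

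Many ribosomal protein genes had a GATA2 peak at the promoter. A summit lay between 2 kb upstream and 100 bp downstream of a transcript start at 35 of 86 members (40.7%, Wilson 95% interval 30.9 to 51.3%), and 15.6% of all protein-coding genes had such a peak. With 9aa-Ins, 10 of 86 members (11.6%, 6.44 to 20.1%) had a promoter peak, beside 3.91% of all genes. This count fell to 6 (6.98%, beside 3.34% of all genes) at a q-value of 1e-08 and to 4 (4.65%, beside 2.81%) at 1e-10. A promoter peak with both constructs was found at 8 members (9.30%), beside 3.48% of all genes. The intervals cover counting error only and treat genes as independent.

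Within 10 kb of a transcript start, 58 members (67.4%) had a GATA2 peak, beside 23.0% of all genes, and 19 (22.1%) had a 9aa-Ins peak, beside 5.86%. The last count fell to 10 at a q-value of 1e-10. The share of all genes within 10 kb was not computed there, so the fall cannot be read as particular to members. Mitochondrial ribosomal protein genes, which encode the subunits of the separate mitochondrial ribosome, had a GATA2 promoter peak at 19 of 78 (24.4%, 16.2 to 34.9%) and a 9aa-Ins promoter peak at 4 (5.13%). A list of 19 other genes with TOP mRNAs, mostly translation factors such as Eef2 and Eif4b, had 7 (36.8%, 19.1 to 59.0%) and 5 (26.3%, 11.8 to 48.8%). The interval of the GATA2 share of the cytosolic genes overlapped those of both lists.

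**Figure D1:**
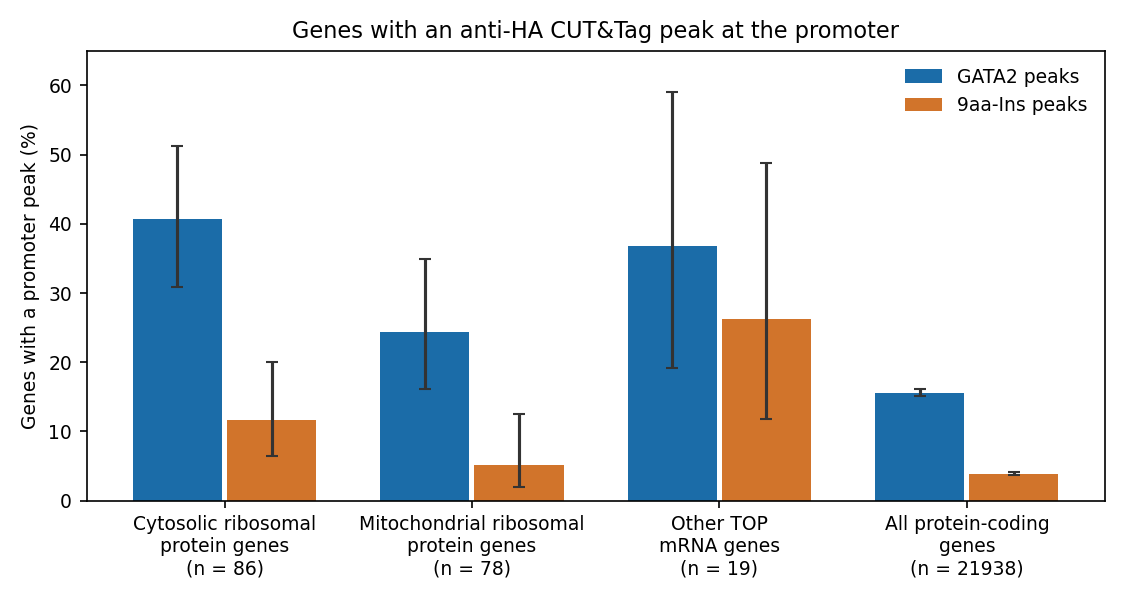
Percent of the genes in each group with a peak summit from 2 kb upstream to 100 bp downstream of a transcript start, with Wilson 95% intervals as error bars, in the GATA2 list (blue) and the 9aa-Ins list (orange). The cytosolic ribosomal protein genes stand at 40.7% and 11.6%, and all protein-coding genes at 15.6% and 3.91%.

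Promoter peaks were spread over both ribosomal subunits. GATA2 peaks were found at 21 of 46 large subunit genes (45.7%, 32.2 to 59.8%) and 13 of 31 small subunit genes (41.9%, 26.4 to 59.2%). The 9aa-Ins peaks were at 4 large (8.70%, 3.43 to 20.3%) and 6 small subunit genes (19.4%, 9.19 to 36.3%), and these intervals overlapped widely. All 3 genes of the stalk, which recruits translation factors to the large subunit (Rplp0, Rplp1 and Rplp2), had a GATA2 promoter peak. The interval of this share (43.9 to 100%, beside 15.6% of all genes) overlapped that of all members (30.9 to 51.3%). Rplp2 also had a promoter peak with 9aa-Ins. Of the 8 paralogs, 1 had a GATA2 promoter peak (12.5%, 2.24 to 47.1%), beside 15.6% of all genes. It was Rpl36al, with 12 reads at -6 bp, and the summit lay in the promoter of the neighbouring Mgat2 as well. None of the 8 paralogs had a 9aa-Ins promoter peak (0%, 0 to 32.4%), beside 3.91% of all genes, and Rps19bp1 had no promoter peak in either list. Both intervals of the paralogs include the share of all genes.

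The sets of genes with and without a promoter peak were as follows. A GATA2 peak alone was found at 27 members, beside 12.1% of all genes, among them Rpl5, Rpl7, Rpl7a, Rpl10, Rpl10a, Rpl13a, Rpl15, Rpl18, Rpl19, Rpl21, Rpl23a, Rpl30, Rpl31, Rpl36, Rpl36al, Rpl37, Rpl38, Rplp0, Rplp1, Rps2, Rps14, Rps19, Rps21, Rps27a, Rps28 and Rps29. Members with a promoter peak of both constructs included Rpl27, Rpl39, Rplp2, Rps10, Rps13 and Rps25. A 9aa-Ins promoter peak without a GATA2 promoter peak was found at 2 members, Rpl3 and Rps23, beside 0.433% of all genes. In 21 members a peak lay within 10 kb but not at the promoter, beside 7.28% of all genes, and 28 members had no peak within 10 kb in either list, beside 76.7%. The last set included the paralogs Rpl10l, Rpl22l1, Rpl39l, Rps27l and Rps27rt, the large subunit genes Rpl6, Rpl8, Rpl9, Rpl11, Rpl17, Rpl22, Rpl26, Rpl29, Rpl34, Rpl36a and Rpl37a, and the small subunit genes Rps3a1, Rps4x, Rps7, Rps15, Rps15a, Rps16, Rps20, Rps24, Rps26, Rps27 and Rpsa.

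Among 20 members named in Diamond-Blackfan anemia, 9 (45.0%) had a GATA2 promoter peak, close to the share of all members. They were Rps10, Rps19, Rps28, Rps29, Rpl5, Rpl15, Rpl18, Rpl27 and Rpl31, and Rps10 and Rpl27 also had a 9aa-Ins peak. Rps19, the most often mutated gene of the disease, had a GATA2 peak of 16 reads with its summit 25 bp downstream of a start. At Rpl5, whose product binds 5S rRNA, the GATA2 peak had 19 reads at +88 bp. Its partner Rpl11 had no peak within 10 kb. The other GATA2 peaks of this list had 16 reads at Rps10, 15 at Rps28, 14 at Rpl15, 13 at Rpl27 and Rpl31, 12 and 10 at Rpl18 and 9 at Rps29. At Rps14, the ribosomal gene of the 5q deletion syndrome, the GATA2 peak had 14 reads at -59 bp.

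GATA2 peaks at ribosomal promoters were of middle height. The 36 peaks of the 35 genes (Rpl18 had 2) ranged from 9 to 20 reads with a median of 15, and the 3158 GATA2 promoter peaks of all genes had the same median of 15 but reached 87. Of all GATA2 promoter peaks, 717 (22.7%) had more reads than the highest peak of a member. Rplp1, a stalk gene, and Rps27a, which encodes a fusion of ubiquitin with a small subunit protein, had the highest promoter peaks with 20 reads each. Rpl5, Rpl21, Rps2 and Rps13 followed with 19 reads, Rpl37 with 18 and Rpl13a and Rpl19 with 17. Rpl30, Rplp2, Rps10, Rps19 and Rps25 shared the next place with 16 reads. The lowest was Rps29 with 9 reads. With 20 reads at most, the counting error of a single peak is wide, and the order of neighbours in this ranking is not resolved. In a GATA2 list shortened to its 1079 highest peaks, the length of the 9aa-Ins list, 0 members had a promoter peak, beside 2.94% of all genes. The values depend on the limit of 100 bp downstream, since a GATA2 peak of 26 reads at Rps23, with its summit at +106 bp, is left out and is among those 1079.

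The 10 peaks with 9aa-Ins ranged from 9 to 22 reads with a median of 11, beside a median of 13 and a highest value of 128 over all 744 promoter peaks of that list. Rps23, a small subunit protein at the decoding center, had 22 reads, Rpl27 17 and Rps25 15. Rps13 had 11 reads, Rpl3, Rplp2 and Rps10 had 10 and Rpl39 had 9.

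**Figure D2:**
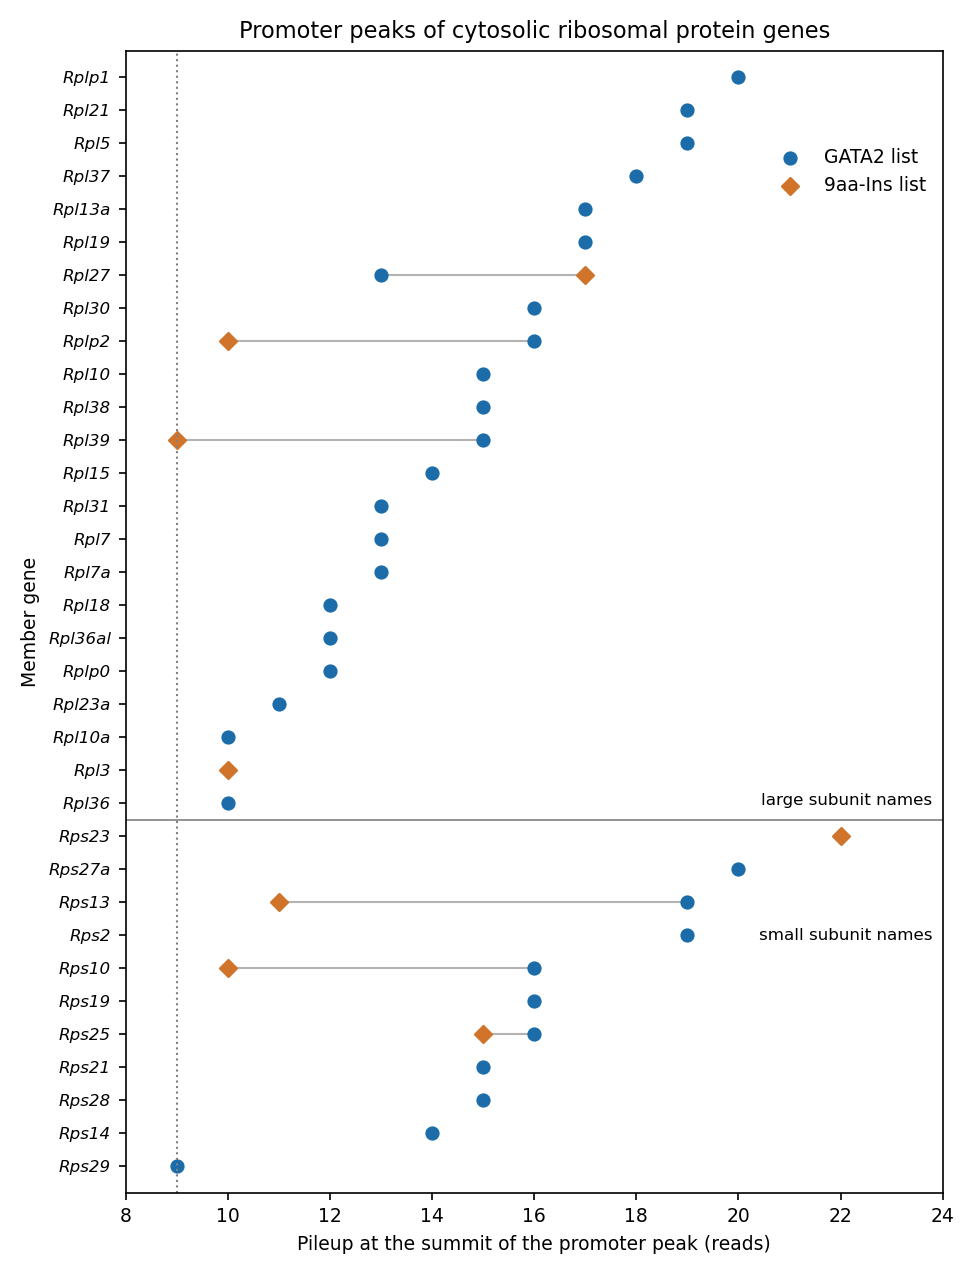
Pileup at the summit of the highest promoter peak, in reads, of the member genes named in the text, in the GATA2 list (blue circles) and the 9aa-Ins list (orange diamonds), ordered within large and small subunit names. A gray line joins the values of a gene with both peaks, and the dotted line marks the lowest pileup of the lists, 9 reads.

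At the 8 members with a promoter peak in both lists, the 9aa-Ins pileup was lower at 6 and higher at Rpl27, and over all 763 genes with both promoter peaks it was lower at 656. Rps13 had 19 reads with GATA2 and 11 with 9aa-Ins, a ratio of 0.579 (exact 95% interval 0.249 to 1.28). Rpl27, a large subunit protein, had 13 and 17 reads, a ratio of 1.31 (0.598 to 2.93). Rps25, a small subunit protein, had 16 and 15 reads, a ratio of 0.938 (0.432 to 2.02). All 8 intervals included 1, so that a difference in height was not detectable at any single gene, and the interval left out 1 at 181 of the 763 genes. The median ratio was 0.713, and over the 763 genes it was 0.647. Summits of a pair lay 3 bp apart at Rpl27 and up to 113 bp apart elsewhere, with a median of 40.0 bp.

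Rps23 had peaks in both lists, and the rule for promoters split them. Its 9aa-Ins summit lay at -73 bp with 22 reads, and its GATA2 summit, 179 bp away, lay at +106 bp with 26 reads, just past the limit of 100 bp. The ratio of the pileups was 0.846 (0.457 to 1.55). Another pair of genes had a GATA2 summit just outside the limit, Rps6, the substrate of the S6 kinases, with 15 reads at +143 bp, and Rpl23 with 11 reads at +143 bp. Just inside were Rpl5 at +88 bp, Rpl39 at +83 bp and Rplp2 at +82 bp. At Rpl3, a protein near the peptidyl transferase center, the 9aa-Ins peak had 10 reads at +97 bp, also just inside, and the nearest GATA2 summit was 6378 bp away. With the limit moved to 500 bp downstream, a window chosen after the data were seen, 41 members (47.7%) had a GATA2 peak, beside 17.6% of all genes.

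Overlap between the lists was counted at 1 bp or more. Of 36 GATA2 promoter peaks, 9 (25%, 13.8 to 41.1%) overlapped a 9aa-Ins peak, beside 22.0% of all GATA2 promoter peaks. In the other direction, 9 of 10 (90.0%) 9aa-Ins promoter peaks overlapped a GATA2 peak, beside 90.6%. The GATA2 share fell to 13.3% at a q-value of 1e-10, beside 19.6% of all promoter peaks. No interval was computed at that cutoff, so the order of the 2 shares is not resolved. With a reciprocal overlap of 50% the shares were 16.7% beside 13.2% for GATA2 and 70% beside 55.2% for 9aa-Ins. By height, members' GATA2 peaks of 9 to 12 reads overlapped at 2 of 10, those of 13 to 15 reads at 3 of 12 and those of 16 reads or more at 4 of 14. Over all promoter peaks the shares at these heights were 3.79%, 10.9% and 37.8%. Taken under 16 reads, the overlap was 5 of 22 (22.7%) for members and 7.38% for all promoter peaks, a division made after the values were seen and not tested.

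**Figure D3:**
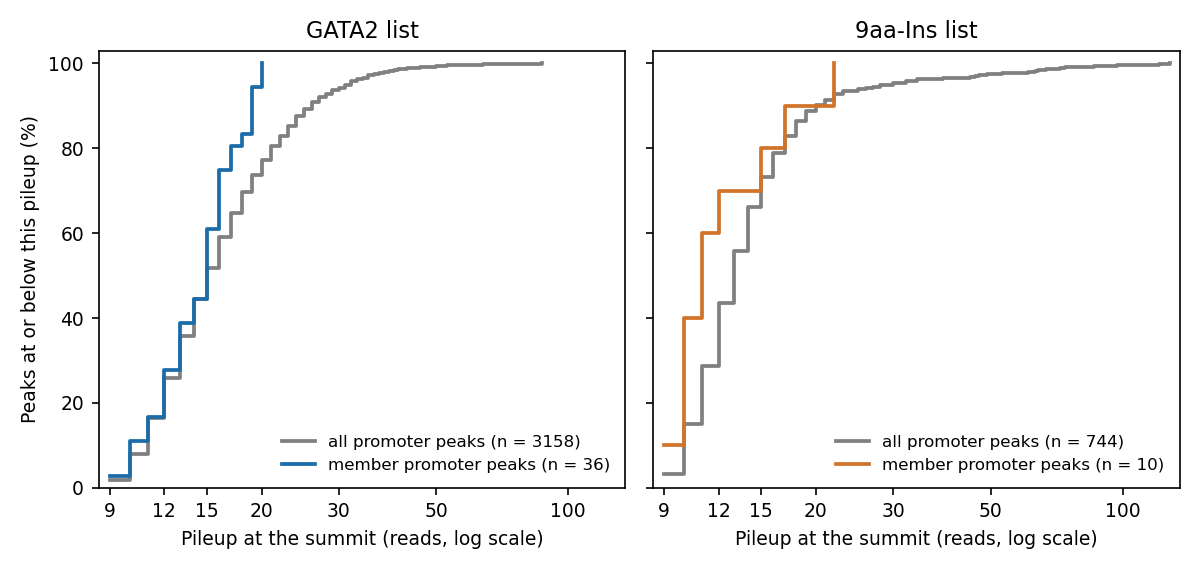
Cumulative percent of promoter peaks at or below each pileup (reads, log scale) for members (colored) and for all promoter peaks (gray), in the GATA2 list (left) and the 9aa-Ins list (right). The member curve of the GATA2 list follows that of all promoter peaks up to the median of 15 reads and ends at 20, whereas the gray curve goes on to 87.

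The median GATA2 summit of members lay at -68.5 bp, beside -94.0 bp for all promoter peaks, and 29 of 36 (80.6%) lay within 200 bp of a start, beside 71.4%. The summit was upstream in 26 of 36 peaks (72.2%), beside 76.1% of all promoter peaks. The window, which reaches farther upstream than downstream, bears on these values, and with 500 bp to each side the medians were -12 bp for members and -30.0 bp for all promoter peaks. The farthest was at Rpl36 with 10 reads at -1151 bp. With 9aa-Ins the median was -92.0 bp, beside -128 bp for all promoter peaks of that list. The 201 bp around the summits of members had a median GC content of 59.2% for GATA2 and 57.2% for 9aa-Ins, beside 64.2% in each list for all promoter peaks.

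**Figure D4:**
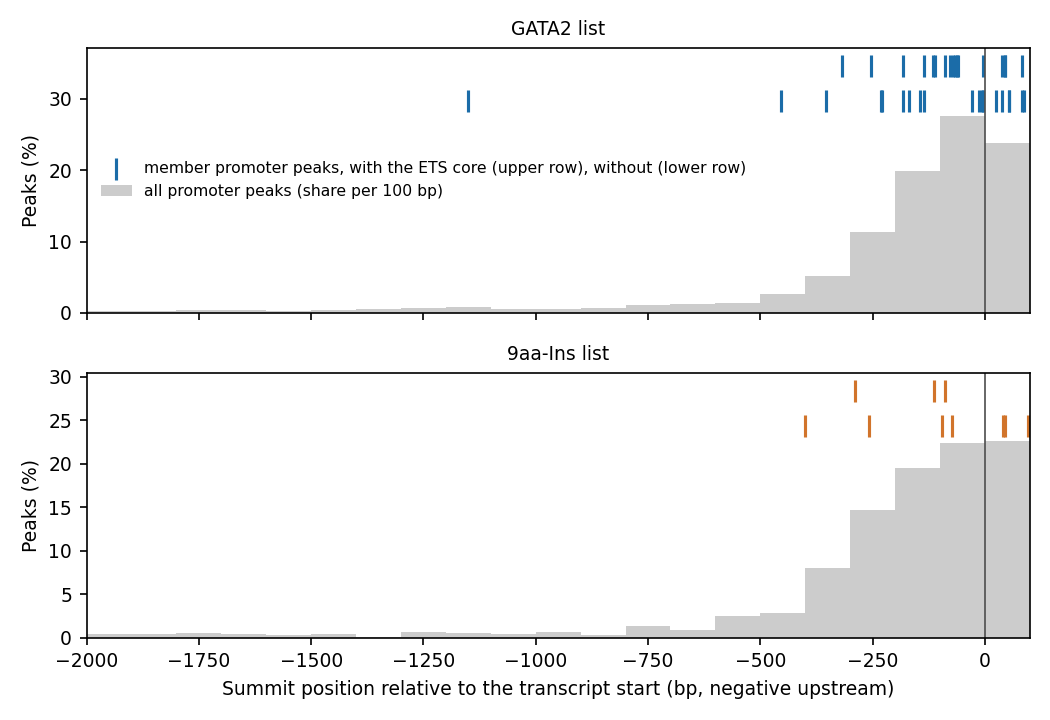
Position of the summit relative to the transcript start in bp (negative is upstream), as the percent of all promoter peaks per 100 bp (gray bars) and as ticks for the member peaks (upper row with the ETS core within 100 bp of the summit, lower row without). In the GATA2 list 29 of 36 member summits lie within 200 bp of a start.

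Few ribosomal promoter peaks held a GATA motif near the summit. WGATAR, the motif bound by GATA2 (W is A or T, R is A or G), was counted on either strand up to 100 bp from a summit. It was found in 3 of 36 GATA2 peaks (8.33%, 2.87 to 21.8%), at Rpl10, Rpl36 and Rpl37, beside 13.8% of all GATA2 promoter peaks. With 9aa-Ins it was found in 1 of 10, at Rpl3, beside 9.14%. With the motif anywhere in the peak the GATA2 shares were 16.7% for members and 24.1% for all promoter peaks, and within 50 bp of the summit 5.56% and 7.38%. A match of letters is not a binding site, and the intervals for members include the share of all promoter peaks.

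CCGGAA, the core recognised by ETS factors, was found more often. It lay within 100 bp of the summit, on either strand, in 17 of 36 GATA2 peaks of members (47.2%, 32.0 to 63.0%), beside 17.9% of all GATA2 promoter peaks, and in 3 of 10 9aa-Ins peaks (30%, 10.8 to 60.3%), beside 17.6%. GGGCGG, the GC box bound by Sp factors, was in 14 (38.9%, 24.8 to 55.1%) of the GATA2 peaks, beside 60.2%, and in 6 of 10 9aa-Ins peaks, beside 63%. AANATGG, the core bound by YY1, was in 5 (13.9%), beside 8.68%.

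**Figure D5:**
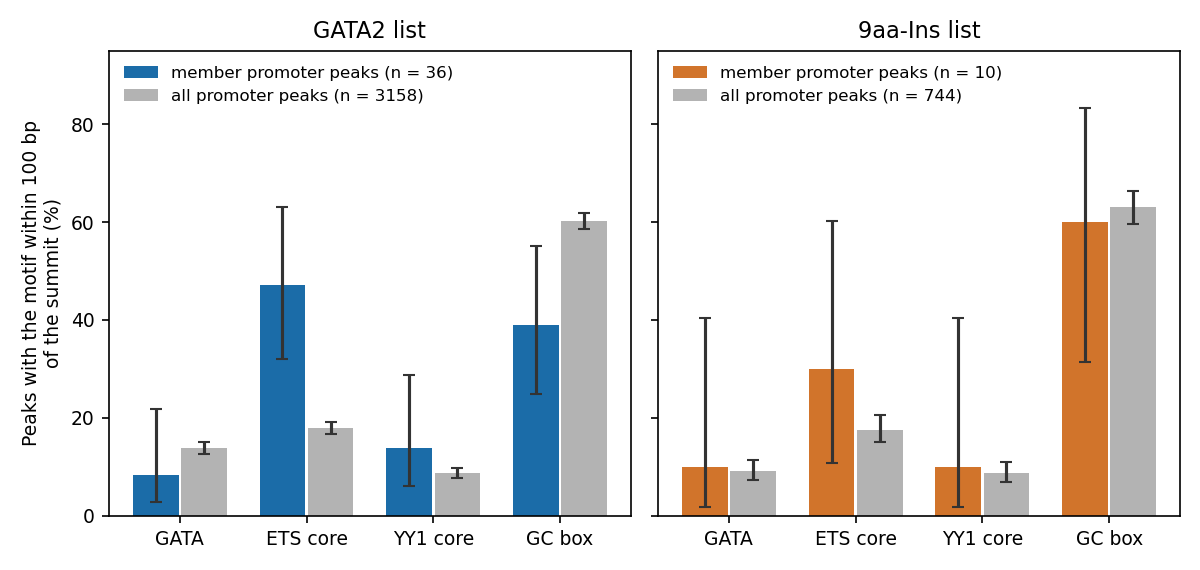
Percent of promoter peaks with each motif on either strand within 100 bp of the summit, for members (colored) and all promoter peaks (gray), with Wilson 95% intervals. In the GATA2 list the ETS core stands at 47.2% for members and 17.9% for all promoter peaks, and the GATA motif at 8.33% and 13.8%.

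The ETS core was a feature of the promoters with and without a peak. In windows from 250 bp before to 50 bp after 1 representative start per gene, CCGGAA was found in 42 of 86 members (48.8%), beside 18.1% of all protein-coding genes. It was in 19 of 35 (54.3%, 38.2 to 69.5%) members with a GATA2 promoter peak, beside 27.3% of all genes with one, and in 23 of 51 (45.1%, 32.3 to 58.6%) members without, and these intervals overlapped. Read the other way, 19 of 42 (45.2%) members with the core had a GATA2 peak and 16 of 44 (36.4%) without it did, beside 23.4% and 13.8% of all protein-coding genes with and without the core. GGGCGG was in 46 members (53.5%), beside 45.4% of all genes, and in 65.7% of members with a GATA2 promoter peak, beside 71.5% of all genes with one. WGATAR was in 19 members (22.1%), beside 26.9%, and in 7 of 35 (20%) with a GATA2 promoter peak, beside 17.9% of all genes with one. It was in 12 of 51 (23.5%) members without.

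A run of at least 8 pyrimidines within 25 bp of the representative start, a stand-in for the TOP tract, was found in 36 of 86 members (41.9%), beside 19% of all genes. GATA2 promoter peaks were found at 14 of the 36 (38.9%) and at 21 of the 50 other members (42.0%), beside 14.9% and 15.7% of all genes with and without such a run. For 9aa-Ins the counts were 1 of 36 (2.78%) and 9 of 50 (18%), beside 3.77% and 3.95%.

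The sequences around some of these summits are printed below 5′ to 3′ on the strand of the gene, from the reference genome GRCm38 (mm10), with WGATAR or CCGGAA on either strand in capitals. Each covers 100 bp to each side of the summit and stops 15 bp past an annotated start. Rplp1, with the highest GATA2 promoter peak of the large subunit genes, and Rps21, a small subunit gene, show a pair of ETS cores each and no GATA motif.
Rplp1 (chr9:61914625-61914825, - strand, GATA2 summit): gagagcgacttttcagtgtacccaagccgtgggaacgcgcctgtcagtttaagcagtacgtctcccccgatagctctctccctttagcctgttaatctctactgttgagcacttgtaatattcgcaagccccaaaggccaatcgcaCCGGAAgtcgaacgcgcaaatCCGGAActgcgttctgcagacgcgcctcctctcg
Rps21 (chr2:180257215-180257391, + strand, GATA2 summit): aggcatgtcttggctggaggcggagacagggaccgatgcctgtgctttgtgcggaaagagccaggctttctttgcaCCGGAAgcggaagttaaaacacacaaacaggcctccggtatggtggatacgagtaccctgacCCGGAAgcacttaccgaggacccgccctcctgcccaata
Rpl37 and Rpl10, large subunit genes, are shown because a GATA motif lay near their GATA2 summits. Rpl37 had 18 reads at -135 bp and Rpl10, a protein joined late in large subunit assembly, had 15 reads at -77 bp. The core at Rpl10 reads TTCCGG, its reverse complement.
Rpl37 (chr15:5116410-5116610, + strand, GATA2 summit): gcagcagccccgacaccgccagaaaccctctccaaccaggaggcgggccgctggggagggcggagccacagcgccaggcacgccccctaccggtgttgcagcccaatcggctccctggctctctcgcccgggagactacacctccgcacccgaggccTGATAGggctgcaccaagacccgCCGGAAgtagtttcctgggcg
Rpl10 (chrX:74270635-74270826, + strand, GATA2 summit): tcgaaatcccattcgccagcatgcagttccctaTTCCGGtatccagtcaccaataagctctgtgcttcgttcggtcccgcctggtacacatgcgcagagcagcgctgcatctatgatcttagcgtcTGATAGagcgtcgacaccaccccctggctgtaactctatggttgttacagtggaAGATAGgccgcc
Rpl27 and Rps23 had the most reads with 9aa-Ins, and Rps13 had the lowest ratio of 9aa-Ins to GATA2. At Rpl27 a pair of ETS cores stood side by side upstream of the start, whereas the windows of Rps23 and Rps13 held neither motif and so have no capitals.
Rpl27 (chr11:101442085-101442285, + strand, 9aa-Ins summit): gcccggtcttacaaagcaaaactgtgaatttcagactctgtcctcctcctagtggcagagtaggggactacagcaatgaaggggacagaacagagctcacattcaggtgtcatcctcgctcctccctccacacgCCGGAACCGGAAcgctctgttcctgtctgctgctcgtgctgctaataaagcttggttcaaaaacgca
Rps23 (chr13:90922785-90922972, + strand, 9aa-Ins summit): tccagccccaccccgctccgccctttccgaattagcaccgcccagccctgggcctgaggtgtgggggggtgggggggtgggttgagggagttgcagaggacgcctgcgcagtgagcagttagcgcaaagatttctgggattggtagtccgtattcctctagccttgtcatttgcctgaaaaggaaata
Rps13 (chr7:116334277-116334477, - strand, GATA2 summit): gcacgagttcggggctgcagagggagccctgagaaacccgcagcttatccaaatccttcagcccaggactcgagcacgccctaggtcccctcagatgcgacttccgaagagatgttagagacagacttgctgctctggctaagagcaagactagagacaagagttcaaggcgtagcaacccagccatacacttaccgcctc

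Other peaks lay farther from the starts. Another 44 GATA2 peaks lay within 10 kb of a member and at no member promoter, with a median of 13 reads, and 10 of them held WGATAR within 100 bp of the summit. Of these 44, 8 overlapped a 9aa-Ins peak and 17 lay in the promoter of another protein-coding gene. The same shares over all peaks of either list were not computed for comparison, so these counts cannot be read as particular to members. The highest of the 44 peaks, with 51 reads and a WGATAR motif, lay at -8585 bp from Rpl13a and in the promoter of Flt3l, which encodes a cytokine of early progenitors. At Rpl14, a large subunit gene, a peak of 24 reads with WGATAR lay at -2352 bp and a second of 16 reads with WGATAR at +5842 bp. Rpl4, which lines the exit tunnel, had a peak of 21 reads at +6099 bp in the GATA2 list and 17 reads at +5972 bp with 9aa-Ins.

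All 21 members with a peak only outside the promoter had it with GATA2, and 4 had one with 9aa-Ins too, at Rpl4, Rpl27a, Rpl35a and Rps19bp1. At 5 of the 21, among them Rpl3l, Rpl35a, Rpl41 and Rps18, every such peak lay in the promoter of another gene. Close downstream of their starts, Rpl13 had 12 GATA2 reads at +229 bp, Rpl27a 11 at +231 bp and Rpl35 15 at +335 bp, besides Rps6 and Rpl23 above. A WGATAR motif lay near the summit at Rpl12 (12 reads, +5042 bp), Rpl28 (10 reads, -3879 bp), Rpl32 (12 reads, -5567 bp), Rps9 (18 reads, +2792 bp) and the paralog Rpl7l1 (13 reads, -4537 bp), as well as at Rpl14 and Rpl23. WGATAR was not found near the highest peaks of Rpl41 (19 reads, +1414 bp), Rpl35a (16 reads, +5537 bp), Rps19bp1 (20 reads, +8839 bp), Rps3 (12 reads, +8672 bp), Rps12 (12 reads, +3975 bp), Rps18 (11 reads, +4109 bp) or Rpl24 (12 reads, +7228 bp). The paralog Rpl3l had peaks of 19 and 17 reads, which lay at the promoters of Rps2 and Ndufb10. The 9 9aa-Ins peaks within 10 kb and at no member promoter had a median of 12 reads, and 8 of them overlapped a GATA2 peak. Some peaks counted for 2 members, since members such as Rps2 and Rpl3l lie within 10 kb of each other.

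Neighbouring features touched some of the promoter peaks. Of the 36 GATA2 promoter peaks, 8 also lay in the promoter of another coding gene, among them both peaks of Rpl18 (Sphk2) and those of Rps25 (Trappc4), Rpl7 (Rdh10), Rps27a (Clhc1) and Rps2 (Rnf151), and such a peak cannot be assigned to 1 of the genes. A snoRNA gene, many of which sit in introns of ribosomal protein genes, lay within 500 bp of the summit in 3 peaks, among them those of Rps2 and Rpl23a. Neither the 8 nor the 3 peaks were set beside a share of all GATA2 promoter peaks, which was not computed. Members that host a snoRNA had a GATA2 promoter peak at 14 of 30 (46.7%) and those that host none at 21 of 56 (37.5%), beside 31.3% of all host genes and 15.4% of all other genes.

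Ribosomal protein genes have many processed pseudogenes, whose near-identical copies can take reads from exons. Words of 31 bases within 100 bp of a summit were searched for on the chromosomes. Those that occur more than once made up over 10% at 2 member GATA2 promoter peaks, 26.3% at Rpl5 and 25.1% at Rps29. No member 9aa-Ins promoter peak exceeded 10%. Among peaks outside the promoter, the share was 10.5% at Rps6 with GATA2 and 13.5% at Rpl27a with 9aa-Ins. The values of these peaks are uncertain for that reason.

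Genes with more annotated starts have more chances to hold a peak. Among members with 1 start, 9 of 30 (30%) had a GATA2 promoter peak, beside 9.94% of all genes with 1 start. With 2 to 3 starts the counts were 14 of 32 (43.8%) beside 15.1%, and with 4 or more 12 of 24 (50%) beside 27.2%. For 9aa-Ins the shares were 6.67% of members beside 2.54% of all genes with 1 start, and 21.9% beside 3.52% with 2 to 3 starts. With 4 or more starts the share was 4.17% (1 of 24) beside 7.32%. That class rests on 1 member with a peak, so its order against all genes is not resolved.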

How the data were processed

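Anti-HA CUT&Tag peaks were analysed from 2 lists, 1 per construct. Bowtie2 was used by the authors to align reads to mm10, duplicate and blacklisted reads were dropped, and MACS3 peaks were called at a q-value of 1e-06; versions are not given in the sources used here. The file labels name merged replicates, whereas the methods describe merging peaks of replicates. The deposited score is 10 times the −log10 q-value without decimals, and the deposited fold enrichment is the ratio (pileup + 1)/(background + 1). The columns of −log10 p-values and of −log10 q-values are likewise the authors'.

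All recovered pileups were whole within 0.01 reads (100%), and the deposited −log10 p-values were matched by a Poisson calculation to 5.32e-04 or better, with 1 peak not computed. Annotation was GENCODE M21, and sequence was RefSeq GRCm38. Peaks were linked to every start of protein-coding transcripts, and overlap meant at least 1 bp. Shares have Wilson and ratios exact binomial 95% intervals. Members were placed by name in a class, except some that are counted but not reported here by name, and values were given for the 10 highest per list, those with WGATAR, with 9aa-Ins alone or with a peak only outside the promoter, the paralogs with a peak and the anemia genes. The linking and counting steps were tested on simulated data. Members and lists were chosen with earlier results of these data known. No test between constructs was run, because the lists used here merge the 2 libraries of each construct. Alternatives were other promoter windows, stricter q-values, all transcripts, overlap of any base, a reciprocal overlap of 50%, other motif windows and a GATA2 list shortened to 1079 peaks. Python 3.11.15, pandas 2.3.3 and scipy 1.17.1 were used.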

Additional observations from a re-analysis of the deposited data

How the results depend on the processing

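No paired analysis was possible because the replicates were merged in each list. Of 141 values computed under alternatives, 128 stayed within the limits set and 13 moved. The count of members with a 9aa-Ins promoter peak fell from 10 to 6 at a q-value of 1e-08 and to 4 at 1e-10. These were 6.98% and 4.65% of members, beside 3.34% and 2.81% of all genes. The 9aa-Ins count within 10 kb fell from 19 to 10 at 1e-10, and the share of all genes was not computed there. With GATA2 the counts at the promoter stayed at 34 and 30 (34.9% beside 13.3% of all genes at 1e-10). At 1e-10, 13.3% of the member peaks were shared, beside 19.6% of all promoter peaks. The shared percent of member 9aa-Ins promoter peaks was 100 and that with WGATAR 0 with the annotated gene start only, at 1e-08 and at 1e-10, since Rpl3 then dropped out. With the GATA2 list shortened to its 1079 highest peaks, 0 members had a GATA2 promoter peak, beside 2.94% of all genes. With so few genes the order is not resolved, and the peak of Rps23 was left out only because its summit lay at +106 bp. In that list 3 members had a GATA2 peak within 10 kb, and 10% of the members' 9aa-Ins promoter peaks were shared. The matching shares of all genes and all peaks were not computed for those 2 values. The heights, distances, shared and WGATAR percents of GATA2 peaks and the ratios could then not be computed. The window to 500 bp downstream, chosen after the data were seen, gave 41 of 86 members with GATA2, beside 17.6% of all genes. With 9aa-Ins it gave 12 of 86 members, beside 4.48% of all genes. The low pileups, from 9 reads, limit comparisons of single genes.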
